A study of Rattus norvegicus with 120 samples.

Results

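The genes Bckdk and Ppm1k were followed through bulk RNA-seq of rat kidney and heart. They were chosen by name, as the kinase and the phosphatase that set the phosphorylation of the branched-chain ketoacid dehydrogenase complex, and they are 2 of the 30560 entries of the count tables. Branched-chain ketoacid dehydrogenase is the mitochondrial enzyme complex that commits leucine, isoleucine and valine to breakdown. BDK, the kinase encoded by Bckdk, phosphorylates the E1 alpha subunit of the complex and switches it off. PP2Cm, the phosphatase encoded by Ppm1k, removes that phosphate and switches the complex on, and BT2 is a small molecule that inhibits BDK. Levels given here are of mRNA, and neither protein amounts nor phosphorylation were analysed.

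The identity of the Bckdk entry carries a limit that holds throughout. No entry has the symbol Bckdk in the deposited tables. The entry ENSRNOG00000019485 has the description of the branched-chain ketoacid dehydrogenase kinase but the symbol Kat8 in all 8 tables that give symbols. Kat8 encodes a histone acetyltransferase and is the next gene after Bckdk in the RefSeq gene order of the rat assembly GRCr8, and no other entry has the description of Kat8. The entry is therefore called Bckdk/Kat8 below, because the tables do not show whether its reads come from Bckdk, from Kat8 or from both. Ppm1k was matched by its symbol to the single entry ENSRNOG00000006893. Both entries passed the filter on low counts in every comparison.

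The rats were 30-week-old ZSF1 animals, a strain in which the obese rats combine obesity, diabetes, hypertension and kidney disease, and the lean rats are the usual controls. Study A compared lean rats on vehicle, obese rats on vehicle and obese rats on BT2. Study B compared obese rats on vehicle, obese rats on empagliflozin, an inhibitor of the sodium-glucose cotransporter SGLT2, and obese rats on BT2 plus empagliflozin (the combination). Compounds were given in the chow, each group held 10 rats, and each rat's kidney or heart gave 1 library, 120 in all over 12 groups. No lean group and no group on BT2 alone was analysed here from study B. The labels call the kidney samples kidney while the series text names both whole kidney and kidney cortex. No label pairs a kidney with a heart, so tests between organs took all libraries as independent, although both organs may come from the same rats. The p-values measure the spread between the rats of a group.

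Kidney libraries held from 4598872 to 54856493 counts and heart libraries from 6735299 to 23575895 counts, apart from a BT2 kidney library of 22774 counts and a study B vehicle kidney library of 776178 counts. Levels are CPM, counts per 1000000 of the library, scaled with TMM factors within each organ, and the 2 shallow libraries were left out of means, SDs and ratios but not out of the model fits. The 6 kidney groups and 6 heart groups each split evenly over library plates 1 and 2, and plate was a term of each fit. Transcripts of another tissue, or of the atrium in heart, stood out in 6 kidney and 11 heart libraries, called other-tissue libraries below. Kidneys were flagged by Actc1 of heart muscle or Alb of liver above 100 times the median. Hearts were flagged by Myl7, an atrial gene, above 5 times the median or Myh4 above 100 times. Atrial markers reached 4493 CPM in a study B vehicle heart. The kidneys included combination replicates 1, 4, 5 and 7, with ventricular markers at 9.48, 4.26, 6.76 and 974 CPM. Those of replicates 1, 4 and 5 lay within the range of kidneys not flagged, which reached 408 CPM. For Alb, the log2 difference of kidney BT2 effects with against without empagliflozin was 7.68 (edgeR, adjusted p = 0.0111). The BT2 library of 22774 counts was also among the 6. In lean kidney replicate 8, also flagged, the markers of ventricular muscle summed to 10889 CPM against a median of 10.6 CPM in its group. Those of skeletal muscle summed there to 24307 CPM against 78.9 CPM. Both kinds were present there: Myh6, a cardiac myosin, was at 1502 CPM and Myh4, a fast skeletal myosin, at 10609 CPM. Skeletal muscle markers reached 1245 CPM in an obese vehicle kidney of study A, which is not counted among these 6. Summed over 12 markers, the median level of proximal tubule transcripts was 20226 CPM in kidneys of lean rats, 12798 CPM in those of obese vehicle rats of study A and 7899 CPM in those of study B.

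**Figure D1:**
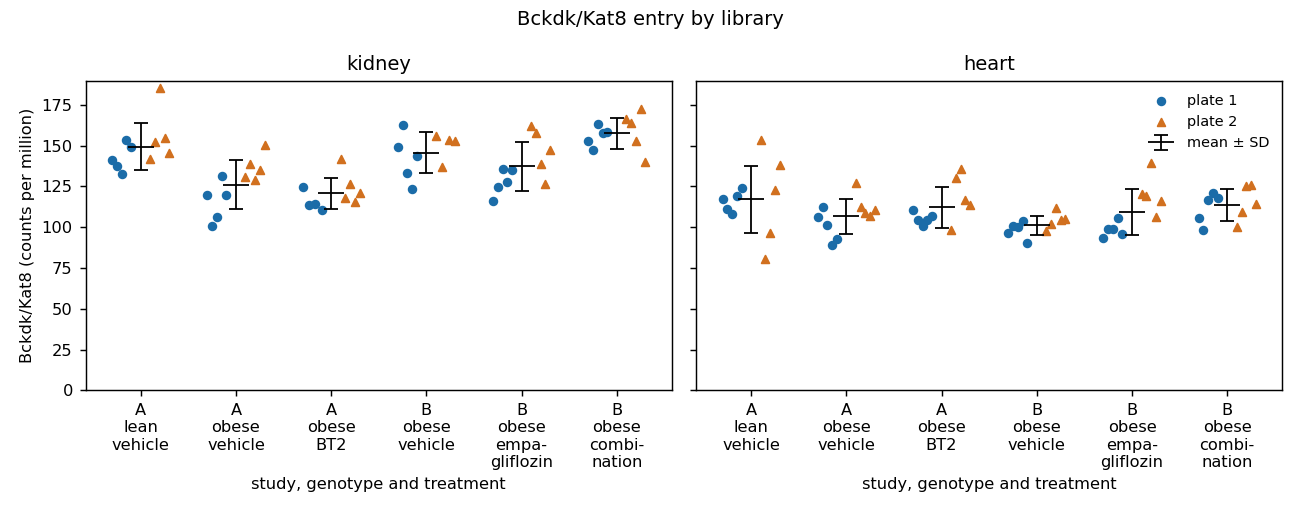
Level of the Bckdk/Kat8 entry in CPM (linear axis from 0) in each library of the 6 kidney and 6 heart groups, with the mean and SD of each group; points mark the plate. The 6 kidney means lie between 121 and 157 CPM and the 6 heart means between 101 and 117 CPM, and the ranges of neighbouring groups overlap.

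The kinase entry was the steadier of the pair. In lean kidney, Bckdk/Kat8 ranged from 133 to 185 CPM with a median of 147, a mean of 149 ± 14.5 CPM (SD, n = 10). Obese vehicle rats of study A ranged from 101 to 150 CPM with a median of 130, a mean of 126 ± 14.9 (SD, n = 10). The ranges overlapped, and 9 of 10 obese libraries lay below the lean median. The log2 fold change was -0.22 ± 0.06 (SE), with an adjusted p of 0.0105 (edgeR quasi-likelihood test, Benjamini-Hochberg adjustment over all genes tested, here and below). In that comparison 32% of the 14230 genes tested passed the adjusted p of 0.05 in either direction, so a call at this threshold was common. Within plate 2 alone the fold change was -0.17 with an adjusted p of 0.285.

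BT2 alone left the kinase entry within the replicate spread in kidney. BT2-treated obese rats ranged from 110 to 142 CPM with a median of 118, a mean of 121 ± 9.48 (SD, n = 9), and overlapped with their vehicle group. The log2 fold change against vehicle was -0.07 (95% confidence interval -0.21 to 0.06, adjusted p = 0.511), where 5.67% of genes passed. Against lean vehicle, a comparison that uses the same BT2 libraries, Bckdk/Kat8 was lower in the BT2-treated obese rats by a log2 fold change of -0.31 ± 0.07 (adjusted p = 0.00145), where 39.7% of genes passed.

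In study B neither comparison with vehicle gave a call for the kinase entry. Vehicle rats ranged from 123 to 163 CPM with a median of 149, a mean of 146 ± 12.5 (SD, n = 9). Empagliflozin rats ranged from 116 to 162 CPM with a median of 135, a mean of 137 ± 14.7 (SD, n = 10), a log2 difference of -0.10 ± 0.06 (adjusted p = 0.347, where 1.06% of genes passed). Combination rats ranged from 140 to 172 CPM with a median of 158, a mean of 157 ± 9.61 (SD, n = 10), a log2 difference from vehicle of 0.10 ± 0.05 (interval -0.01 to 0.20, adjusted p = 0.166, where 32.1% of genes passed). All 3 groups overlapped.

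Set against empagliflozin alone, the combination gave a log2 fold change for Bckdk/Kat8 of 0.20 ± 0.05 (adjusted p = 0.00559), where 31.7% of genes passed. The call was lost within plate 2 (0.11, adjusted p = 0.471). It was also lost without the libraries that held transcripts of another tissue, all of the combination group (0.16, adjusted p = 0.0893). The vehicle-treated obese kidneys of study B were higher than those of study A by 0.24 ± 0.06 (adjusted p = 0.00184), where 65.4% of genes passed, and this call was lost within plate 2 (0.16, adjusted p = 0.116).

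**Figure D2:**
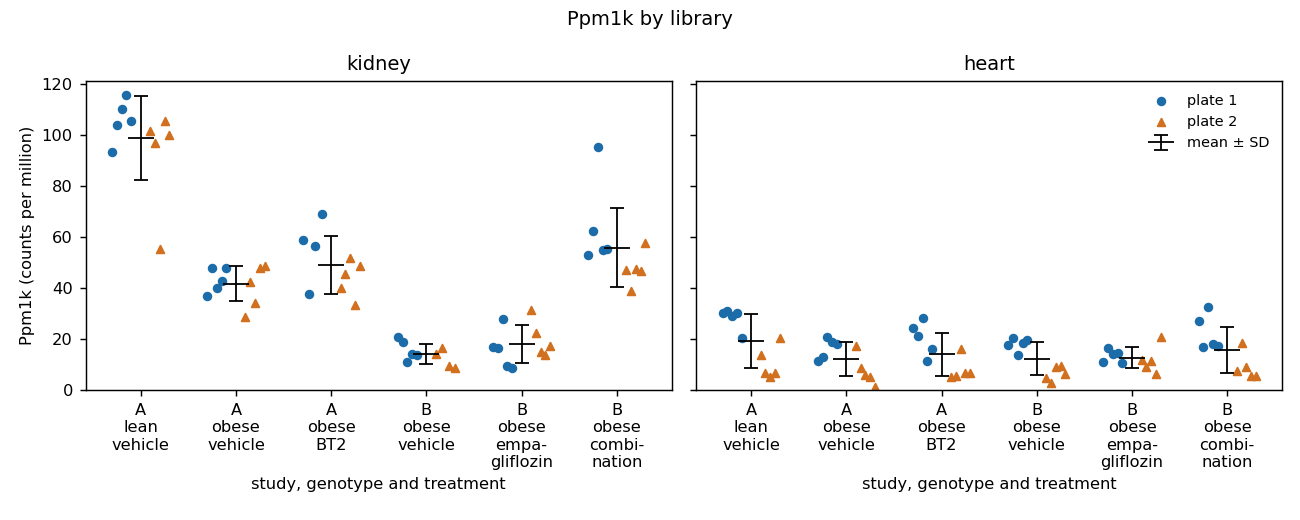
Level of Ppm1k in CPM (linear axis from 0) in each library of the 6 kidney and 6 heart groups, with the mean and SD of each group; points mark the plate. In kidney the lean libraries (55.2 to 116 CPM) lie above all obese vehicle libraries of study A (28.5 to 48.6 CPM), and the combination libraries (39 to 95.3 CPM) lie above all vehicle libraries of study B (8.77 to 20.9 CPM); in heart all groups overlap.

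The phosphatase moved far more than the kinase entry in kidney. Ppm1k in lean kidney ranged from 55.2 to 116 CPM with a median of 103, a mean of 98.8 ± 16.6 CPM (SD, n = 10), the lowest value being that of replicate 8, the library with cardiac and skeletal muscle transcripts. Obese vehicle rats of study A ranged from 28.5 to 48.6 CPM with a median of 42.6, a mean of 41.7 ± 6.87 (SD, n = 10). The groups did not overlap, and Ppm1k was lower in 10 of 10 obese libraries than the lean median. The log2 fold change was -1.21 ± 0.11 (interval -1.44 to -0.98, adjusted p = 1.51e-07), which is 2.32-fold lower and ranks Ppm1k at 40 by p among the 14230 genes tested, 32% of which passed. Without the libraries that held transcripts of another tissue the fold change was -1.28.

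BT2 alone gave no call for Ppm1k in kidney. BT2-treated obese rats ranged from 33.3 to 69.2 CPM with a median of 48.6, a mean of 49.1 ± 11.4 (SD, n = 9), and overlapped with vehicle. The log2 fold change was 0.24 ± 0.12 (interval 0.00 to 0.48, adjusted p = 0.203, where 5.67% of genes passed). Ppm1k in these rats was still below lean by a log2 fold change of -0.99 ± 0.12 (adjusted p = 2.53e-06).

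The lowest kidney levels of Ppm1k were those of study B vehicle and empagliflozin rats. Vehicle rats ranged from 8.77 to 20.9 CPM with a median of 14.2, a mean of 14.2 ± 4.09 (SD, n = 9). Empagliflozin rats ranged from 8.54 to 31.6 CPM with a median of 16.9, a mean of 18 ± 7.40 (SD, n = 10). These 2 groups overlapped, with a log2 fold change of 0.37 ± 0.22 (interval -0.09 to 0.82, adjusted p = 0.383, where 1.06% of genes passed).

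With BT2 and empagliflozin together Ppm1k rose. Combination rats ranged from 39 to 95.3 CPM with a median of 54, a mean of 55.9 ± 15.4 (SD, n = 10), and 10 of 10 lay above every vehicle library and every empagliflozin library. The log2 fold change against vehicle was 2.00 ± 0.14 (interval 1.72 to 2.29, adjusted p = 6.28e-10), a 4.01-fold rise that ranks 12 by p among 14037 genes, 32.1% of which passed. Against empagliflozin alone, the rise was 1.62 ± 0.20 (interval 1.20 to 2.03, adjusted p = 4.37e-06) or 3.07-fold. Both comparisons use the same combination libraries, so they are not independent.

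BT2 changed Ppm1k more on top of empagliflozin than alone: the difference between the log2 effects was 1.37 ± 0.24 (interval 0.89 to 1.85, adjusted p = 0.000807) and ranked 17 by p, where 7.94% of genes passed this test. Within plate 2 alone it was 1.11 with an adjusted p of 0.119. For Bckdk/Kat8 the same difference was 0.27 ± 0.08 (adjusted p = 0.0339), and that call was lost without the plate term (adjusted p = 0.105), within either plate (0.217 and 0.417) and without the libraries holding another tissue's transcripts (0.0759). BT2 was given alone in study A and with empagliflozin in study B, so the partner drug and the study cannot be told apart.

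The obese vehicle rats of the 2 studies were themselves far apart. Ppm1k was 2.99-fold lower in study B than in study A, a log2 fold change of -1.58 ± 0.14 (adjusted p = 2.72e-08), with no overlap between 8.77 to 20.9 CPM and 28.5 to 48.6 CPM. In that comparison 65.4% of the genes passed, and study differs from study in all its samples, so that animals, tissue and handling cannot be told apart. The order of the kidney means was lean, combination, BT2, vehicle of study A, empagliflozin and vehicle of study B, and each neighbouring pair in that order overlapped in range. The combination group, at 55.9 CPM, lay next to the obese groups of study A in that order.

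Markers of kidney cell types differed in level between the same groups. The summed proximal tubule markers ranged from 10207 to 21351 CPM in lean kidneys and from 8725 to 14704 CPM in obese vehicle kidneys of study A. They ranged from 6523 to 9863 CPM in study B vehicle kidneys and from 8273 to 12090 CPM in combination kidneys, with medians of 7899 and 9334 CPM. Myeloid markers summed to a median of 83.1 CPM in lean, 195 CPM in study A vehicle, 184 CPM in study B vehicle and 108 CPM in combination kidneys. Podocyte markers were at a median of 283 CPM in vehicle kidneys of study A and 98.0 CPM in those of study B, and principal cell markers at 258 and 749 CPM. The principal cell markers did not move alike. Aqp2 was higher in study B by a log2 fold change of 2.01 and Aqp3 by 1.19, both calls. Scnn1g did not pass (0.16, adjusted p = 0.235), where 65.4% of all genes passed. The part of these shifts in the Ppm1k results was not tested, and in whole tissue fewer cells of a type and less RNA per cell cannot be told apart.

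In heart neither gene passed edgeR's test over both plates in any comparison of treatment or genotype. Ppm1k ranged in lean heart from 5.15 to 31 CPM with a median of 20.5, a mean of 19.3 ± 10.6 (SD, n = 10), and in obese vehicle heart of study A from 1.13 to 21 CPM with a median of 12.2, a mean of 12.1 ± 6.68 (SD, n = 10). The log2 fold change was -0.62 ± 0.29 (interval -1.22 to -0.01, adjusted p = 0.267, where 5.36% of genes passed). Within plate 1 alone it was -0.75 and passed (adjusted p = 0.0115), while the other 9 of 10 alternative fits gave no call. BT2 hearts averaged 14.2 ± 8.42 CPM (SD, n = 10), a log2 difference from vehicle of 0.18 ± 0.29 (adjusted p = 0.97, where 0.0558% of genes passed). The 3 groups of study A overlapped.

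In study B hearts Ppm1k averaged 12.3 ± 6.54 CPM in vehicle, 12.7 ± 4.07 CPM in empagliflozin and 15.8 ± 9.16 CPM in combination hearts (SD, n = 10 each). The combination differed from vehicle by a log2 fold change of 0.38 ± 0.21 (interval -0.05 to 0.80, adjusted p = 0.335, where 5.13% of genes passed). The upper bound of that interval lies below the lower bound of the kidney interval, 1.72. Tested directly, the combination effect on Ppm1k was smaller in heart than in kidney, with a log2 difference of -1.65 ± 0.30 (interval -2.25 to -1.05, adjusted p = 0.000154), where 14.1% of genes passed. Within plate 2 alone that difference was -1.53 with an adjusted p of 0.0617. The obesity effect on Ppm1k did not pass the same test between organs (0.60 ± 0.37, adjusted p = 0.305, where 13.7% of genes passed).

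Bckdk/Kat8 in heart ranged from 80.6 to 153 CPM with a mean of 117 ± 20.4 in lean rats and from 89.0 to 127 CPM with a mean of 107 ± 10.8 in obese vehicle rats of study A (SD, n = 10 each). In study B it averaged 101 ± 5.76 CPM in vehicle, 109 ± 14.3 CPM in empagliflozin and 113 ± 9.83 CPM in combination hearts (SD, n = 10 each), all overlapping. The combination against vehicle gave 0.16 ± 0.05 (adjusted p = 0.0637), just outside the threshold, and DESeq2 placed the same fold change just inside it (adjusted p = 0.0351). The authors' deposited table gives this entry a log2 fold change of 0.14 with an adjusted p of 0.028. BT2 against vehicle gave 0.07 (adjusted p = 0.91).

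The remaining heart comparisons gave no call for either gene. For Ppm1k the log2 fold change was -0.44 in BT2-treated obese against lean hearts (adjusted p = 0.332, where 4.27% of genes passed), 0.21 with empagliflozin (0.844, 0.107%), 0.18 with the combination against empagliflozin (0.913, 0.0249%) and -0.03 between the vehicle groups of the studies (0.953, 11.7%). The difference of the BT2 effects with and without empagliflozin was -0.06 for Ppm1k and -0.01 for Bckdk/Kat8. In that heart test edgeR called 0% of 12864 genes and DESeq2 called 0, while 453 genes had an unadjusted p under 0.05 with edgeR. Between organs, the BT2 effects on Ppm1k differed by -0.05 (adjusted p = 0.994, where 0.487% of genes passed) and the empagliflozin effects by -0.27 (adjusted p = 0.759, where 1.2% passed). None of the 4 effects on Bckdk/Kat8 passed between organs (adjusted p from 0.148 to 0.592).

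Library plate went with Ppm1k in heart. Over all 60 hearts, with group as a term, plate 2 was lower than plate 1 by a log2 fold change of -1.12 ± 0.16 (adjusted p = 1.54e-08), a test added after the values had been seen, in which 69.1% of genes passed. The plate 2 median was lower in 6 of 6 heart groups. The plates did not overlap in 2 of the 6 heart groups. In lean heart, 1 of those 2, the plate 1 libraries held 20.6 to 31 CPM and the plate 2 libraries 5.15 to 20.4 CPM. Empagliflozin hearts overlapped, with medians of 14.1 CPM on plate 1 and 11.4 CPM on plate 2. The median share of mitochondrial transcripts was 46.6% on plate 1 and 38.5% on plate 2, and its part in the plate difference was not tested. In kidney the plate difference of Ppm1k was -0.19 ± 0.09 (adjusted p = 0.0921, where 41.7% of genes passed), and Bckdk/Kat8 was higher on plate 2 by 0.13 in both organs (adjusted p = 0.000759 in kidney and 0.00346 in heart).

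The organs of lean rats held the pair in different proportion. With the 20 libraries scaled together, Ppm1k ranged from 37.9 to 78.8 CPM in lean kidney with a median of 69.8, a mean of 67 ± 11.2 CPM, and from 7.61 to 45.5 CPM in lean heart with a median of 30.6, a mean of 28.4 ± 15.6 CPM (SD, n = 10 each). Bckdk/Kat8 averaged 101 ± 10.3 CPM in lean kidney and 172 ± 31.1 CPM in lean heart on that scale. The organs overlapped in both genes, for Bckdk/Kat8 at 89.6 to 127 CPM in kidney and 117 to 228 CPM in heart. On the scale within kidney, lean replicate 8, the library with muscle transcripts, held the extreme of both genes. Its Ppm1k was lowest at 55.2 CPM (nearest library 93.2) and its Bckdk/Kat8 highest at 185 CPM (nearest 154). The overlap without it was not tested. Lean heart was lower than lean kidney for Ppm1k by a log2 fold change of -1.36 ± 0.24 (adjusted p = 2.9e-05) and higher for Bckdk/Kat8 by 0.80 ± 0.10 (adjusted p = 2.29e-07), where 81% of genes passed. The Ppm1k difference was -0.79 within plate 1 and -1.96 within plate 2. The CPM given elsewhere are scaled within an organ and cannot be compared across organs. Counts of Bckdk/Kat8 per count of Ppm1k, which need no scaling, averaged 1.60 in lean kidney (median 1.43) and 8.82 in lean heart (median 6.40). The heart value is over plates that differ in Ppm1k.

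**Figure D3:**
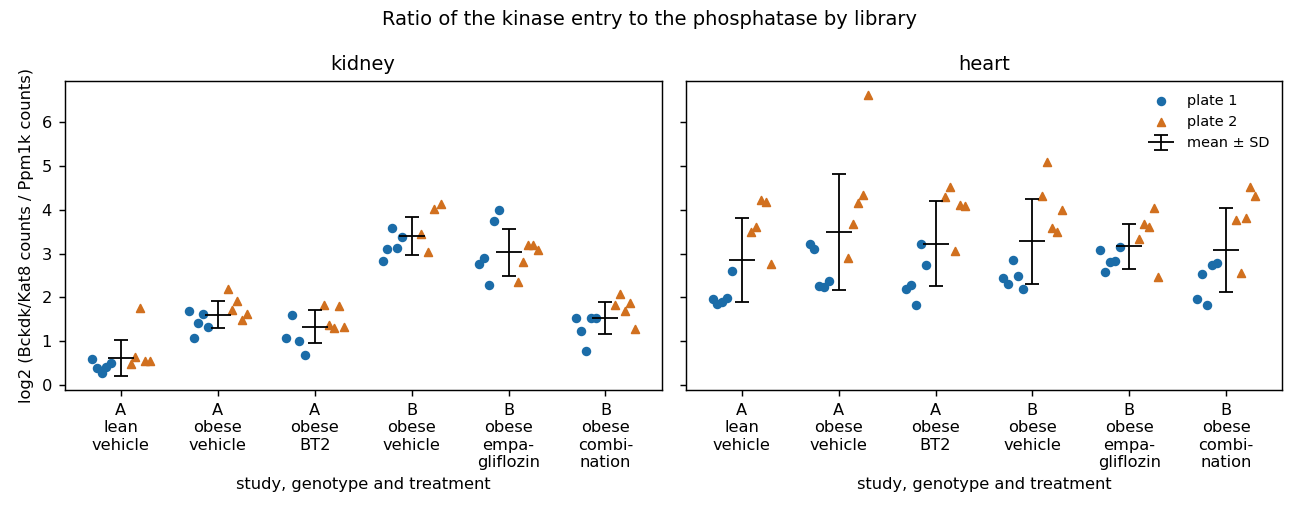
Log2 of the counts of Bckdk/Kat8 per count of Ppm1k in each library of the 6 kidney and 6 heart groups, with the mean and SD of each group; points mark the plate. As ratios of counts, the study B vehicle kidneys (7.12 to 17.4) lie above all study A vehicle kidneys (2.10 to 4.57) and all combination kidneys (1.71 to 4.20).

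The ratio of the kinase entry to the phosphatase was taken within each library, where depth and scaling drop out. It is a ratio of counts and not of molecules, since transcript length does not drop out of it. In kidney it averaged 1.60 in lean rats, with a median of 1.43, and ranged from 1.20 to 3.36. The highest lean value was that of replicate 8, the library with cardiac and skeletal muscle transcripts. In obese vehicle rats of study A the ratio averaged 3.11 and ranged from 2.10 to 4.57. The log2 difference was 0.99 (permutation test, two-sided, 100000 resamples, p adjusted over 14 contrasts = 0.0007). BT2-treated rats averaged 2.59, a log2 difference from vehicle of -0.28 (exact permutation test, adjusted p = 0.232).

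In study B the kidney ratio averaged 11.1 in vehicle, 8.72 in empagliflozin and 2.98 in combination rats. The combination lowered the ratio, with a log2 difference of -1.87 against vehicle (exact permutation test, adjusted p = 0.000152) and of -1.50 against empagliflozin (permutation test, adjusted p = 0.00028), with no overlap in either comparison. Empagliflozin against vehicle differed by -0.38 (exact permutation test, adjusted p = 0.236). The heart ratio averaged from 8.82 in lean to 18.9 in obese vehicle rats of study A, where replicate 10 alone stood at 97.9 and the median was 8.96. None of its 7 heart contrasts passed (permutation tests, adjusted p from 0.423 to 0.819). These tests held no term for plate. Heart Ppm1k differed between plates by a log2 fold change of -1.12, so that spread stayed in them and could hide a difference. Within the 12 groups the 2 genes did not pass a test of correlation with each other (adjusted p of 0.695 or more for Pearson's r and 0.635 or more for Spearman's rho). In lean kidney r was -0.79, rho -0.13, and r was 0.44 without the 2 libraries farthest from the median, so that the negative value rested on them.

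**Figure D4:**
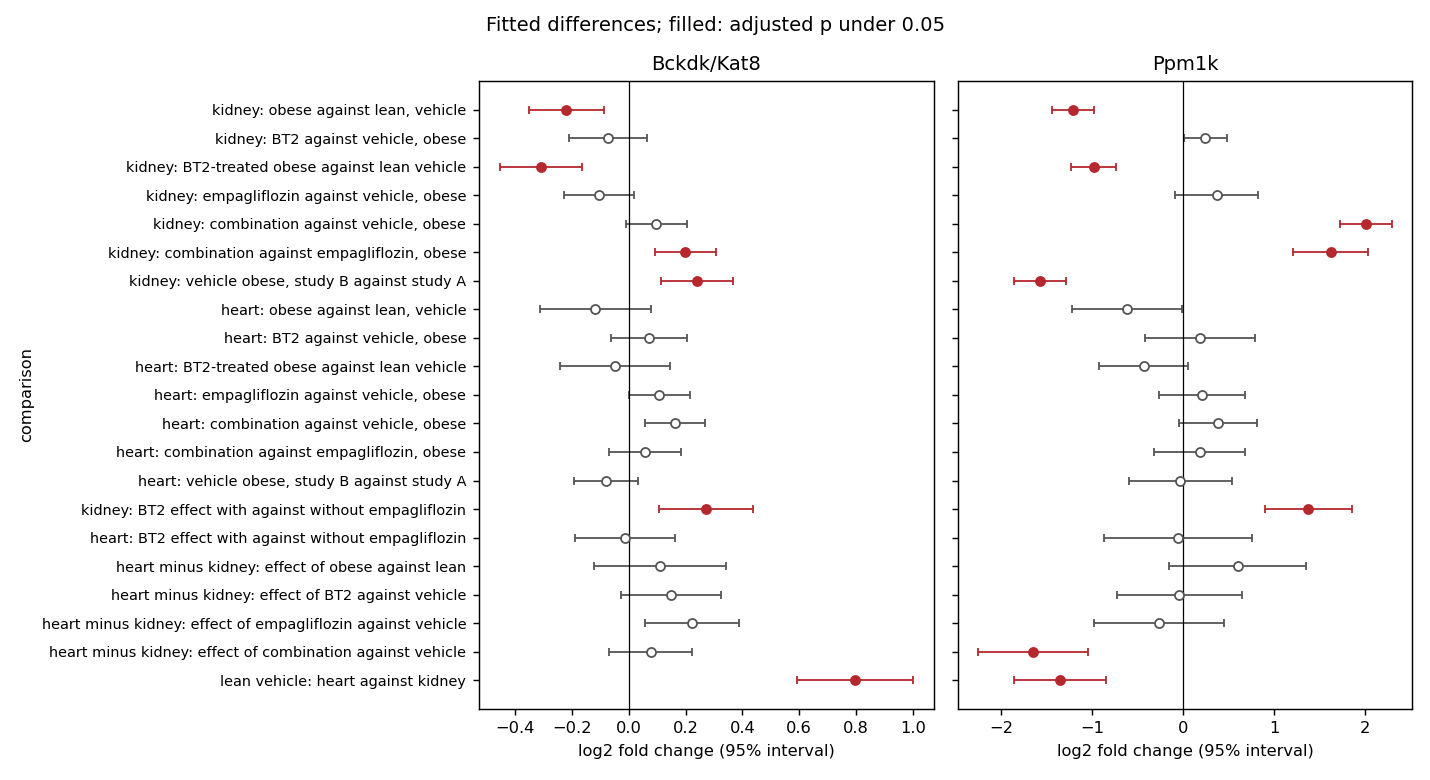
Log2 fold change of Bckdk/Kat8 and Ppm1k with 95% confidence intervals in each comparison in kidney and heart; filled points passed the adjusted p of 0.05, and the axis of Ppm1k covers a wider range than that of Bckdk/Kat8. In kidney Ppm1k lies at -1.21 for obese against lean and at 2.00 for the combination, and Bckdk/Kat8 at -0.22 and 0.10.

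Of the 4 subunit genes, 3 fell in obese against lean kidney, where 32% of all genes passed. On the log2 scale the change was -0.47 for Bckdha, the E1 alpha subunit that BDK phosphorylates, -0.42 for Bckdhb, its E1 beta partner, and -0.45 for Dbt, the E2 core. Dld, the E3 subunit shared with other dehydrogenases, stood at -0.23 (adjusted p = 0.064). All 4 rose with the combination against vehicle, where 32.1% of all genes passed, by 0.39 for Bckdha, 0.28 for Bckdhb, 0.51 for Dbt and 0.30 for Dld. Bckdha averaged 172 CPM in lean, 125 CPM in study A vehicle, 167 CPM in study B vehicle and 223 CPM in combination kidneys. The call of Bckdhb was lost without the libraries that held another tissue's transcripts (0.27). None of the 4 passed with BT2 alone or with empagliflozin alone, where 5.67% and 1.06% of all genes passed.

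Upstream of the complex, the aminotransferases went in opposite directions. Bcat2, the mitochondrial branched-chain aminotransferase, fell in obese kidney (log2 fold change -0.70), rose with BT2 by 0.53 (adjusted p = 0.00389) and rose with the combination by 0.79. Bcat1, the cytosolic form, rose in obese kidney by 1.19 from a mean of 4.64 CPM to 10.5 CPM, and fell with the combination (-1.56). Slc25a44, the mitochondrial carrier of branched-chain amino acids, did not pass in either (0.04 and -0.04).

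Over the whole route of branched-chain amino acid breakdown, 24 genes without the pair itself, obese kidney had 19 lower and 1 higher, with a median log2 fold change of -0.43 beside -0.02 over all genes tested, of which 32% passed. BT2 alone had 1 higher and 0 lower and empagliflozin alone 0 in either direction, counts near the shares of all genes that passed, 5.67% and 1.06%. The combination against vehicle had 18 higher and 1 lower, with a median of 0.29 beside 0.01 over all genes, of which 32.1% passed. By point estimate, Ppm1k exceeded each of the 24 genes in size in both comparisons. In obese kidney its margin over Bcat1 lay within the error (-1.21 ± 0.11 beside 1.19 ± 0.28, SE). Among the downstream enzymes, Mmut, methylmalonyl-CoA mutase, stood at -0.51 in obesity and 0.60 with the combination, and Ivd, isovaleryl-CoA dehydrogenase, at -0.58 and 0.22. Acat1, the acetyl-CoA acetyltransferase of isoleucine and ketone metabolism, fell by 0.58 in obesity and did not pass with the combination (0.05).

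**Figure D5:**
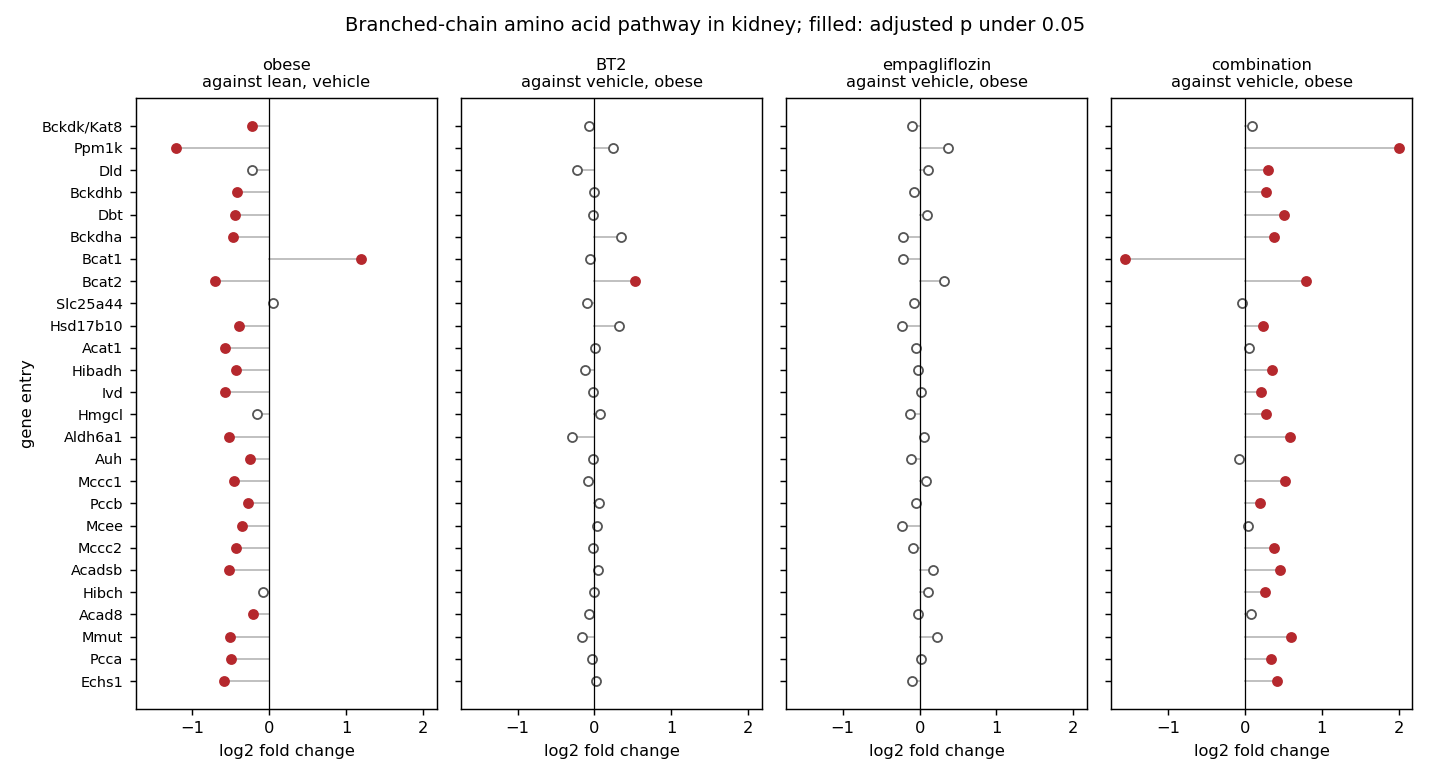
Log2 fold change in kidney of Ppm1k, Bckdk/Kat8 and the listed genes of branched-chain amino acid breakdown for obese against lean and for BT2, empagliflozin and the combination against vehicle; filled points passed the adjusted p of 0.05. Of the 24 other genes, 19 were lower in obese kidney and 18 higher with the combination.

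Vehicle-treated obese kidneys of study B against study A had 11 of these 24 genes lower and 2 higher, the median being -0.17, a smaller share than the 65.4% of all genes that passed. Between studies the log2 fold change was -1.20 for Mmut, -0.83 for Dld and -0.68 for Dbt, whereas Bckdha was higher by 0.49. In heart 3 of 24 genes were lower in obese rats (Dbt, Bcat2 and Acadsb, at -0.54, -0.65 and -0.54), where 5.36% of all genes passed. With the combination 6 of 24 were higher, where 5.13% of all genes passed, among them Bcat2 at 0.62 and Pccb, a subunit of propionyl-CoA carboxylase, at 0.34.

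The nearest relatives of each protein were set beside the pair. BDK belongs to the same kinase family as the pyruvate dehydrogenase kinases. In obese kidney, on the log2 scale, Pdk2 fell by 0.29 (adjusted p = 0.0104) and Pdk3 fell by 0.32 (adjusted p = 0.00773), while Pdk1 stood at -0.55 (adjusted p = 0.271). Pdk4 stood at 0.55 (adjusted p = 0.471) and at 1.67, a call, without the libraries that held another tissue's transcripts, and in heart it rose by 1.70 in obesity and fell by 1.03 with the combination. In kidney the combination gave only Pdk2 a call among the 4 (-0.18, adjusted p = 0.0165), a share near the 32.1% of all genes that passed, and the call was lost without the libraries that held another tissue's transcripts (-0.20).

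PP2Cm belongs to the metal-dependent PPM1 phosphatases, of which 11 others were listed. In obese kidney 3 were lower (Ppm1j at -0.83, Ppm1a at -0.31 and Ppm1b at -0.27) and 1 higher (Ppm1n at 1.14), a share near the 32% of all genes that passed. The combination against vehicle had 3 of 10 tested higher (Ppm1j at 0.43, Ppm1b at 0.34 and Ppm1a at 0.18) and 2 lower (Ppm1n at -0.98 and Ppm1h at -0.34), where 32.1% of all genes passed. Of the phosphatases of pyruvate dehydrogenase, Pdp2 was lower in obese kidney (-0.65) and with the combination (-0.22), whereas Pdpr was lower in obese kidney (-0.29) and higher with the combination (0.22). By point estimate, Ppm1k exceeded each of these in size in both comparisons, though only narrowly over Ppm1n in obese kidney (-1.21 beside 1.14).

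Other genes tied to the pair in the literature were read from the same fits. ATP citrate lyase (Acly), a reported further substrate of both enzymes, did not pass in kidney in either comparison (0.10 and 0.07), nor did Mlxipl, which encodes the glucose-responsive factor ChREBP (0.10 and -0.05). Klf15, a transcription factor of amino acid breakdown, fell by 0.56 in obese kidney and rose by 1.01 with the combination, and it rose with BT2 alone by 0.52 (adjusted p = 0.0152). Ppara, a nuclear receptor of fatty acid use, fell by 0.70 and rose by 0.86. Both Ppara calls and the Klf15 call in obesity were lost within plate 2. Of all genes, 32% passed in obesity, 32.1% with the combination and 5.67% with BT2. Srebf1, a lipogenic transcription factor, fell by 0.81 in obesity and rose with BT2 by 1.86 and with the combination by 2.19. Between the vehicle groups of the studies, where 65.4% of all genes passed, the log2 fold change of Ppara was -2.54. That of Ppargc1a, a coactivator of mitochondrial genes, was -1.93.

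Genes with the most similar pattern were taken by Pearson's r of log2(CPM + 1) over the libraries of an organ, as a description only, since libraries share groups, plates and depth. Over 58 kidney libraries the 5 nearest to Ppm1k were Wwp1 (r = 0.966), a ubiquitin ligase, Thrb (0.947), a thyroid hormone receptor, Dglucy (0.940), Slc30a1 (0.940), a zinc exporter, and Slco4c1 (0.939), an organic anion transporter. Wwp1 averaged 152 CPM in lean, 104 in study A vehicle, 51.5 in study B vehicle and 113 in combination kidneys. Its log2 fold changes, -0.52 in obesity and 1.13 with the combination, were smaller than those of Ppm1k, and those of Slco4c1 were -0.59 and 1.69.

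The nearest to Bckdk/Kat8 in kidney were Txn2 (r = 0.894), the mitochondrial thioredoxin, Ndufv1 (0.867), a complex I subunit, Cyc1 (0.855), a complex III subunit, Mlf2 (0.845) and Samm50 (0.836), of the mitochondrial outer membrane. Over 60 hearts the nearest to Ppm1k were Ccdc141 (0.963), Camk2d (0.956), a calcium-dependent kinase, Akap6 (0.946), Ubr3 (0.946) and Usp24 (0.942). Each of these 5 was also lower on plate 2, by log2 fold changes from -0.97 for Akap6 to -0.47 for Usp24. Among the nearest to Bckdk/Kat8 in heart were Ckm (0.837), the muscle creatine kinase, Bsg (0.836), Sdr39u1 (0.833) and Rilpl1 (0.833).

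The authors' deposited table gives log2 fold changes for Ppm1k in kidney of -1.28 in obesity (adjusted p = 2.7e-45) and 1.96 with the combination (adjusted p = 3.44e-41). For BT2 alone the authors' deposited table gives 0.16 (adjusted p = 0.189) and for empagliflozin alone 0.04 (adjusted p = 0.411). The fits here gave 0.24 and 0.37 for the same 2 comparisons. The authors' kidney values rest on 19 libraries per comparison and the fits here on 20. Why the estimates differ was not tested. For Bckdk/Kat8 in obese kidney the authors' deposited table gives -0.19 (adjusted p = 0.00391).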

How the data were processed

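Poly(A) RNA libraries of rat kidney and heart were sequenced in pairs of reads. The submitters' processing notes name, on the build mRatBN7.2, alignment and quality tools (STAR 2.7.3a, Picard, and FastQC 0.11.9 with MultiQC 1.11), Salmon 1.5.2 for quantification, and DESeq2 1.34.0. The deposited gene tables hold one estimated count per gene and run as the authors made it, an expected count that need not be whole (6.61% of values were not). The authors' normalized counts (a signal, in the deposited tables of their comparisons) served only to match columns, and their log2 fold changes and p-values are quoted as the authors' deposited values.

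Counts of repeat runs were summed (43 libraries), rounded and tested with edgeR 4.0.16 in R 4.3.3: filterByExpr (minimum count 10), TMM, plate as a term, the quasi-likelihood F test and Benjamini-Hochberg adjustment over all genes, with a threshold of 0.05. DESeq2 1.42.0 was an alternative. Ratios were tested by permutation with SciPy 1.17.1, without a plate term. On data simulated for obese against lean kidney, without plate effects, edgeR and DESeq2 recovered the changed genes as intended. Changes as small as those of Bckdk/Kat8 were not simulated. Of the count columns, 82 matched no sample and were not used. The rule named the pair in each comparison, listed genes of the pathway and its relatives, and the 5 genes nearest in pattern, of which 1 in heart is not reported here. The pair and the lists were chosen with earlier results of these data known. Replicate numbers did not pair the samples.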

Additional observations from a re-analysis of the deposited data

Results flagged for a closer look

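In 24 sets of 10 libraries or fewer (2 genes in 12 groups), the library farthest out was compared with the spread of its group by Dixon's criterion, which chance meets in about 1 group in 20. Lean kidney replicate 8 stood apart in both genes: Bckdk/Kat8 was at 185 CPM with the nearest library at 154 CPM, and Ppm1k was at 55.2 CPM with the nearest at 93.2 CPM. This library holds cardiac and skeletal muscle transcripts. Combination kidney replicate 3 had a Ppm1k level of 95.3 CPM with the nearest at 62.4 CPM.

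The effect of BT2 in kidney differed with and without empagliflozin, by 1.37 on the log2 scale for Ppm1k and by 0.27 for Bckdk/Kat8, and partner drug and study cannot be told apart. The effect of the combination on Ppm1k differed between heart and kidney by -1.65.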

How the results depend on the processing

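Of 454 alternative values for the pair, 428 kept direction and side of the threshold, 14 changed sign, 10 lost their call and 2 gained one. Of 70 for the ratio 60 kept both, and of 320 for other named genes 283, with 14 sign changes, 16 calls lost and 7 gained. The causes were not tested, but a plate alone holds fewer samples.

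Plate 2 alone ended the kidney calls of Bckdk/Kat8 for obese against lean (-0.17), the combination against empagliflozin (0.11), study B against A (0.16) and the difference of BT2 effects (0.25), and those of Ppm1k for that difference (1.11) and for the combination between organs (-1.53). The Bckdk/Kat8 difference of BT2 effects also lost its call in plate 1 (0.30), with no plate term (0.27) and without other-tissue libraries (0.24), as did the combination against empagliflozin in the last (0.16). In heart 2 values gained a call, Ppm1k for obese against lean in plate 1 (-0.75) and Bckdk/Kat8 for the combination with DESeq2 (0.16).

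The sign changes were all of values outside the threshold. For Ppm1k in heart they were empagliflozin in plate 1 (-0.41), the combination against empagliflozin in plate 2 (-0.40), study B against A in plate 1 (0.12), with no plate term (0.0014) and with the replicate block (0.068), and the difference of BT2 effects in plate 1 (0.41), with no plate term (0.073) and without other-tissue libraries (0.23). The empagliflozin effect between organs was 0.12 in plate 2. For Bckdk/Kat8 in heart they were the combination against empagliflozin (-0.064) and BT2-treated obese against lean (0.0093) in plate 2, and the difference of BT2 effects in plate 1 (0.10), the original runs (0.0048) and without other-tissue libraries (0.012).

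The kidney log2 ratio lost its call in plate 2, where 5 against 5 libraries allow no p under 0.00794 and 5 against 4, with study B vehicle, none under 0.0159: 1.00 for obese and 0.73 for BT2-treated obese against lean, -1.91 and -1.18 for the combination against vehicle and empagliflozin, and 1.87 for study B against A. In heart it changed sign for empagliflozin in plate 1 (0.44), the combination against empagliflozin in plate 2 (0.37) and the original runs (0.066), and without other-tissue libraries for BT2 (0.092) and study B against A (0.026).

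In kidney, Pdk1 for obese against lean was 0.22 in plate 1 and 0.11 without other-tissue libraries or those absent from the authors' tables, Mlxipl -0.057 in plate 1 and Pdk4 -0.46 in plate 2. For the combination, Mlxipl was 0.071 in plate 1, and in plate 2 Acly was -0.026, Pdk1 -0.059 and Pdk3 -0.026. Pdk3 was -0.0085 with DESeq2, -0.011 without a low-count filter, -0.0091 with DESeq2 size factors, -0.0068 with no plate term and -0.072 without other-tissue libraries. Calls for obese against lean were lost in plate 2 for Bckdha, Pdk2, Pdk3, Klf15 and Ppara, and in the original runs for Pdk2. Calls for the combination were lost in plate 2 for Bckdhb, Pdk2 and Ppara, in plate 1 for Bckdhb, Dld and Pdk2, without other-tissue libraries for Bckdhb and Pdk2, and with all groups in one fit or the replicate block for Pdk2. Calls were gained for obese against lean by Dld, Pdk1 and Pdk4.

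Of 223 counts of called genes, 81 moved by over 1.5 times. In kidney they ranged from 976 to 5423 (obese against lean), 70 to 1357 (BT2), 2 to 614 (empagliflozin), 1754 to 4861 (combination), and in heart from 49 to 1068 (obese against lean), 0 to 95 (BT2), 0 to 1236 (empagliflozin) and 6 to 892 (combination). Where edgeR called 0 genes, 324 to 1479 had an unadjusted p under 0.05. DESeq2 size factors moved the share of calls that were higher from 47.8% to 61.1% in BT2-treated obese against lean kidney and from 29.3% to 42.5% in heart study B against A.

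With the replicate block the calls fell from 812 to 290 for kidney BT2, 149 to 33 for kidney empagliflozin and 622 to 258 for heart combination. Numbers did not pair the samples, since in no contrast did every same-numbered pair correlate above 0.1, and the block changed no call of the pair.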
